A study of Oryza sativa with 14 samples.

Results

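The genes described here are 6 rice genes of the low-oxygen response and of ethanol fermentation: NSHB2, PDC1, PDC2, Adh2, PPDK1 and PPDK2. They were found by symbol or synonym in the array's gene annotation, among 17905 genes that had a probe set of their own. Where a gene had several probe sets, the one brightest on average over the 14 arrays of the series stood for it. Only PDC2 had a second probe set. The rule used the names of the genes and a mean over all arrays, not a contrast between groups. The genes were, however, chosen with earlier results of these data known. Shares over all probe sets given beside counts of these genes are thus descriptions and no test of the set.

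Plant cells that run short of oxygen can respire little pyruvate, and they turn it into ethanol so that glycolysis can go on. Pyruvate decarboxylase makes acetaldehyde from pyruvate and alcohol dehydrogenase reduces it to ethanol, while pyruvate orthophosphate dikinase interconverts pyruvate and phosphoenolpyruvate. Non-symbiotic haemoglobins bind oxygen tightly and remove nitric oxide in hypoxic tissue. Rice germinates and grows under water, and ethylene builds up in submerged tissue, so the genes of fermentation and the ethylene response are often met together in this species.

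The series compared etiolated seedlings of the mutants mhz1, mhz4 and mhz5 with wild type (WT), exposed to ethylene or kept in air. The mutants are known from published work as ethylene-response mutants of rice roots, with MHZ4 and MHZ5 acting in the synthesis of abscisic acid (ABA) and of its carotenoid precursors. Germination took place over 2 days in darkness at 37 °C, and the seedlings were 3 days old at exposure. RNA was hybridised to 1-colour rice arrays, with 6 µg of total RNA per labelling. Roots were measured in mhz1, mhz4, mhz5 and WT after 8 h in 10 ppm ethylene at 28 °C in the dark, and in the same 4 genotypes in air, which makes 8 root arrays. Shoots were measured in mhz4, mhz5 and WT in both gases, which makes 6 shoot arrays, and mhz1 shoots were not analysed here. Each group held 1 array. For the ethylene exposure the water was lowered to 1.5 to 1.7 cm below the seeds, per the labels, and no water level, duration or temperature is given for the air seedlings. Ethylene and any such difference in water, and so in oxygen supply, cannot be told apart here. Both root arrays of WT have the letters mb in their titles, whose meaning is not given, so WT and that mark cannot be told apart in roots.

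Signals are the deposited intensities multiplied by 1 factor per array, so that the trimmed mean of every array is 500. Differences were taken between values of log2(signal + 32), and the added 32 shrinks the change of a dim gene. Since no group has a replicate, a difference between single arrays carries no p-value here. Tests came from limma fits across 23186 probe sets that reached a signal of 200 on at least 2 arrays, with the Benjamini-Hochberg adjustment over all of them and a threshold of 0.05. In these fits the ethylene effect is replicated only by the genotypes, and a genotype only by its 2 gases, so the error is the spread of responses between genotypes and not between replicate seedlings. Tissue labels matched their markers, since 4 root markers summed to 24208 to 41149 in roots and to 745 to 1434 in shoots, and 5 shoot and plastid markers summed to 270 to 2091 in roots and to 82329 to 118286 in shoots. The highest of these root sums was that of the mhz4 ethylene array, where RBCS, the small subunit gene of Rubisco, had 1528 against 116 to 193 on the other roots, whose sums were 270 to 536. The 7 seed and endosperm markers summed to 723 to 1318 on all 14 arrays, with 1 of them reaching a signal of 200. In whole roots and shoots, fewer cells of a type and less RNA per cell cannot be told apart.

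Of the 6 genes, 4 rose in ethylene-treated roots: NSHB2 by 2.49 (SE 0.52, limma adjusted p = 0.0318), PPDK1 by 1.34 (SE 0.20, adjusted p = 0.00762), Adh2 by 1.0 (SE 0.17, adjusted p = 0.0137) and PDC2 by 0.40 (SE 0.045, adjusted p = 0.00212), on the log2 scale. Over all probe sets, 2.32% were called higher in ethylene-treated roots. PDC1 and PPDK2, the other pyruvate decarboxylase and dikinase genes, did not pass the test in either tissue. In shoots 1 of the 6 rose, PDC2 by 0.31 (SE 0.052, adjusted p = 0.0229), where 0.802% of all probe sets were called higher. The median difference of the 6 genes was 0.70 in roots and -0.34 in shoots, beside 0.0051 and 4.05e-05 over all probe sets. The shoot median rests in part on the WT shoot air array, through PDC1 (-1.17) and PPDK2 (-1.06). Without that array, in a fit with no filter on dim probe sets, these were 1.15 and 0.37.

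**Figure D1:**
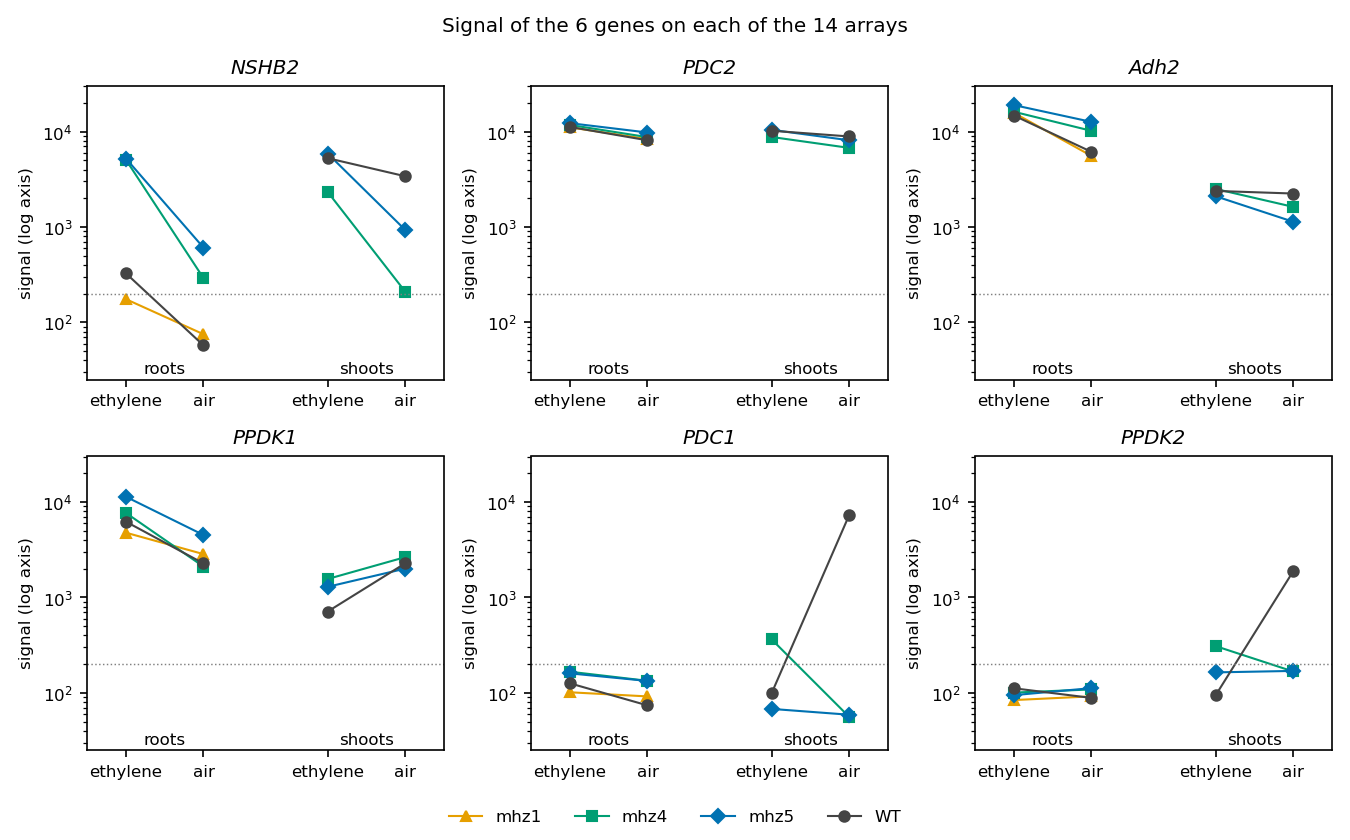
Signal (log axis) of each of the 6 genes on the 14 arrays, by tissue and gas, with a line joining the ethylene and air arrays of a genotype and a dotted line at a signal of 200. Root signals of PDC2, Adh2 and PPDK1 stood higher in ethylene in all 4 genotypes, NSHB2 split the genotypes, and PDC1 reached 7310 on the WT shoot air array alone.

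NSHB2, a non-symbiotic haemoglobin gene (gene ID 4332123), had signals of 175 in mhz1, 5066 in mhz4, 5219 in mhz5 and 327 in WT roots in ethylene. In air the roots had 75.2 in mhz1, 291 in mhz4, 608 in mhz5 and 57.5 in WT. The gene was higher in ethylene in 4 of 4 genotypes, as were 13.4% of all probe sets, yet the gases overlapped, because the mhz4 and mhz5 roots in air lay near or above the ethylene-treated roots of mhz1 and WT. The log2 difference between ethylene and air was 0.95 in mhz1, 3.98 in mhz4, 3.04 in mhz5 and 2.01 in WT. NSHB2 spanned a 90.8-fold range over the 8 root arrays. The mhz4 root array in ethylene was also the one with the raised shoot and plastid markers (a sum of 2091), whose part in its NSHB2 signal was not tested. The mhz5 root array in ethylene, with an NSHB2 signal as high, had a sum of 333.

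PDC2 encodes pyruvate decarboxylase, the entry step of ethanol fermentation (gene ID 4332519). Its root signals in ethylene were 11071 in mhz1, 11731 in mhz4, 12241 in mhz5 and 11177 in WT, against 8345 in mhz1, 8736 in mhz4, 9768 in mhz5 and 8094 in WT in air. Every ethylene array lay above every air array, with a 1.51-fold range over all 8 roots. By this probe set the differences of the 4 genotypes were close to one another, at 0.41 in mhz1, 0.42 in mhz4, 0.32 in mhz5 and 0.46 in WT. The dimmer second probe set gave 666 in mhz1, 714 in mhz4, 956 in mhz5 and 893 in WT in ethylene, against 541 in mhz1, 451 in mhz4, 454 in mhz5 and 665 in WT in air. It rose by 0.59 (SE 0.13, limma adjusted p = 0.0366). Its differences lay further apart, at 0.28 in mhz1, 0.63 in mhz4, 1.02 in mhz5 and 0.41 in WT.

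Adh2, an alcohol dehydrogenase gene whose enzyme reduces acetaldehyde to ethanol (gene ID 4350054), had root signals of 15696 in mhz1, 16116 in mhz4, 18931 in mhz5 and 14715 in WT in ethylene. In air the signals were 5552 in mhz1, 10169 in mhz4, 12615 in mhz5 and 6123 in WT. The ethylene arrays lay within a 1.29-fold range and the air arrays within a 2.27-fold range, and the gases did not overlap. The genotypes with the higher air levels had the smaller differences: 1.49 in mhz1 and 1.26 in WT, but 0.66 in mhz4 and 0.58 in mhz5.

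PPDK1, the dikinase gene also named PPDKB (gene ID 4338750), had 4774 in mhz1, 7692 in mhz4, 11365 in mhz5 and 6229 in WT roots in ethylene, against 2848 in mhz1, 2109 in mhz4, 4516 in mhz5 and 2275 in WT roots in air. The gases did not overlap, and the lowest ethylene array (mhz1) lay just above the highest air array (mhz5). The difference was 0.74 in mhz1, 1.85 in mhz4, 1.33 in mhz5 and 1.44 in WT. In roots the ethylene arrays of 3 of the 6 genes, PDC2, Adh2 and PPDK1, thus all lay above the air arrays, a pattern found in 2.52% of all probe sets.

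PDC1, a second pyruvate decarboxylase gene (gene ID 4339066), stayed below 200 on every root array. It had 102 in mhz1, 167 in mhz4, 160 in mhz5 and 126 in WT in ethylene, against 92.0 in mhz1, 134 in mhz4, 134 in mhz5 and 74.1 in WT in air (difference 0.29, SE 1.02, limma adjusted p = 0.944). PPDK2, a second dikinase gene (gene ID 4333181), was as dim, with 84.2 in mhz1, 101 in mhz4, 94.9 in mhz5 and 112 in WT roots in ethylene, against 92.1 in mhz1, 109 in mhz4, 112 in mhz5 and 88.7 in WT roots in air. The only probe set of PPDK2 ends in _x_at, and its specificity was not tested. PDC1 and PPDK2 entered the fit through 2 shoot arrays that reached 200. The fit shares 1 spread between the tissues, so their errors in roots include the spread of the shoot arrays.

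Leaving out arrays ended some of these calls. NSHB2 lost its root call in 11 of 19 fits that left out an array or a genotype (adjusted p from 0.0520 without the genotype WT to 0.144 without mhz5), and also with root arrays alone (0.0557) or a robust trend (0.0576). The 11 were the fits without either root array or the genotype of mhz4, mhz5 or WT, and without either mhz5 shoot array. Adh2 lost it without either root array of mhz1 or WT, or without the genotype mhz1 or mhz4 (0.0552 to 0.0638), and PPDK1 without the genotype mhz4 (0.0540). PDC2 passed in all 29 alternatives in roots. In shoots PDC2 lost its call in 12 of 29, among them the shoot arrays alone (0.152), the second probe set (0.298), any mhz4 or mhz5 shoot array or genotype (0.116 to 0.249) and the mhz1 root arrays or genotype (0.0505 to 0.0519).

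The shoots gave another order of responses. PDC2 had 8769 in mhz4, 10412 in mhz5 and 10202 in WT shoots in ethylene, against 6742 in mhz4, 8101 in mhz5 and 8880 in WT shoots in air. It was higher in ethylene in 3 of 3 genotypes, as were 18.7% of all probe sets, although WT in air lay above mhz4 in ethylene. NSHB2 had 2335 in mhz4, 5884 in mhz5 and 5262 in WT shoots in ethylene, against 210 in mhz4, 932 in mhz5 and 3402 in WT shoots in air. Its differences were 3.29 in mhz4, 2.62 in mhz5 and 0.62 in WT, and the mean of 2.18 (SE 0.60) did not pass (limma adjusted p = 0.118). Without the WT shoot air array, in a fit with no filter on dim probe sets, the difference was 2.95 and passed (limma adjusted p = 0.0405).

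Adh2 had 2504 in mhz4, 2100 in mhz5 and 2387 in WT shoots in ethylene, against 1625 in mhz4, 1135 in mhz5 and 2242 in WT shoots in air. The difference was 0.61 in mhz4, 0.87 in mhz5 and 0.09 in WT, with a mean of 0.52 (SE 0.20, limma adjusted p = 0.233). The WT shoot thus stood apart from the mutant shoots for NSHB2 and Adh2 through a high level in air, not through a low level in ethylene.

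PPDK1 had 1562 in mhz4, 1294 in mhz5 and 712 in WT shoots in ethylene, against 2646 in mhz4, 2007 in mhz5 and 2280 in WT shoots in air. It was lower in ethylene in 3 of 3 genotypes, as were 17.0% of all probe sets, and its ethylene arrays all lay below its air arrays, as in 4.65% of all probe sets. The mean difference of -1.0 (SE 0.23) did not pass the test in shoots (limma adjusted p = 0.0677). The ethylene difference of PPDK1 in roots minus that in shoots was 2.34 (SE 0.30) and passed (adjusted p = 0.0198), the 1 gene of the 6 to do so, where 0.272% of all probe sets were called with a higher difference in roots. That call was lost in 9 of 19 fits without an array or a genotype (differences of 1.99 to 2.54, adjusted p up to 0.133), namely those without either WT root array, without any mhz4 or mhz5 shoot array, or without the genotype mhz4, mhz5 or WT. For the other 5 genes the differences between the tissues ran from 0.09 for PDC2 to 1.46 for PDC1 and had adjusted p-values of 0.628 to 0.956.

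**Figure D2:**
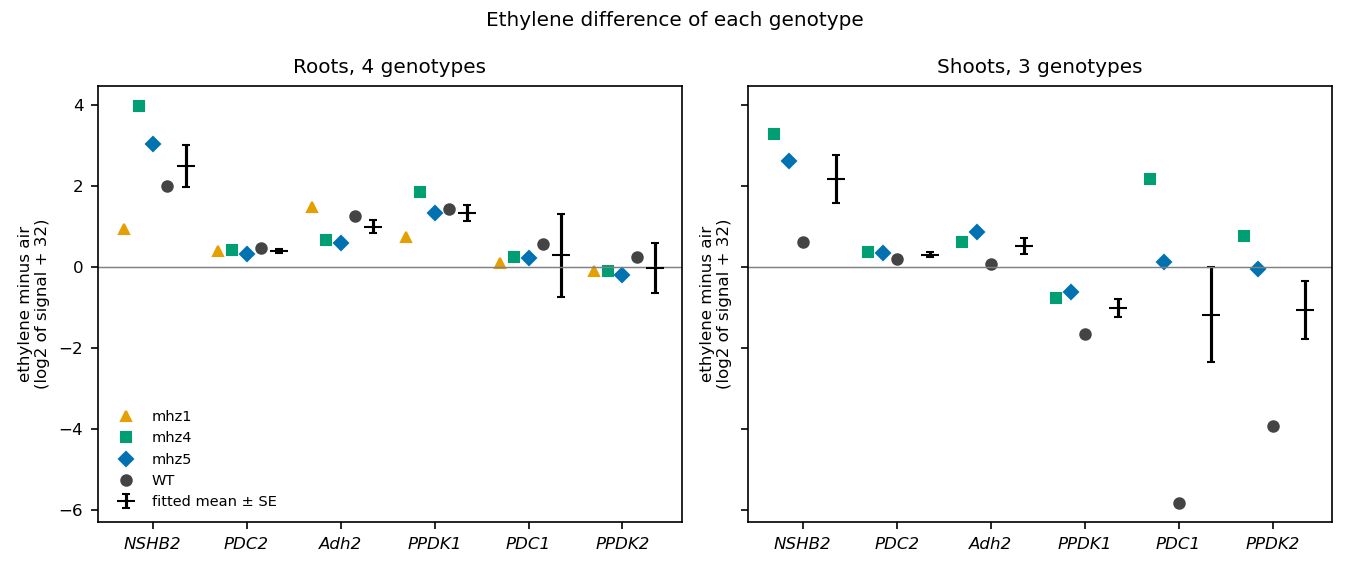
Ethylene minus air for each genotype (points, log2 of signal + 32) in roots and in shoots, with the fitted mean and its SE (black). PPDK1 is above 0 in all 4 root pairs and below 0 in all 3 shoot pairs, and the WT shoot pair is at -5.81 for PDC1 and -3.92 for PPDK2.

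PDC1 and PPDK2 stood high on a single array. PDC1 had 364 in mhz4, 68.0 in mhz5 and 99.3 in WT shoots in ethylene, against 56.1 in mhz4, 59.1 in mhz5 and 7310 in WT shoots in air. PPDK2 had 310 in mhz4, 164 in mhz5 and 94.4 in WT shoots in ethylene, against 168 in mhz4, 170 in mhz5 and 1882 in WT shoots in air. On the WT shoot air array PDC1 was thus 20.1 times its highest level on the other 13 arrays, and PPDK2 was 6.08 times its own. The mhz4 shoots in ethylene, 364 for PDC1 and 310 for PPDK2, were the second highest array for both.

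In WT shoots 3 of the 6 genes were at least 2-fold lower in ethylene than in air: PDC1 (-5.81), PPDK2 (-3.92) and PPDK1 (-1.64). Of the probe sets compared in that pair, which reached 200 on either array, 1.44% were. PDC1 and PPDK2 were compared there only through the air array, so they could only count as lower. For these genes the count is thus a description of that array and no test. In mhz4 shoots the difference between ethylene and air was 2.17 for PDC1 and 0.77 for PPDK2, and in mhz5 shoots it was 0.13 and -0.04. The WT difference between ethylene and air was set against the mean of the mutants in a fit with a WT term, in which the lone WT pair is assumed to vary like the mutants. In shoots NSHB2 (-2.33), PPDK1 (-0.95), Adh2 (-0.65) and PDC2 (-0.17) did not pass (limma adjusted p of 0.408 to 0.546), where 0.0604% of all probe sets were called lower. The same fit put PPDK2 at -4.29 and PDC1 at -6.96. Both genes reached 200 on just 2 arrays, the WT shoot air array and the mhz4 shoot ethylene array, and the WT pair is fitted exactly. Their values are therefore a description of that air array, and no p-value is drawn from them.

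The WT shoot air array had 122 probe sets at least 2-fold above every other shoot array and 7 at least 8-fold above them. On the other shoot arrays 1 to 15 probe sets stood 2-fold above the rest. Among the root arrays the WT air array also had the most, with 98 against 4 to 60 on the others. PDC1 stood furthest above the other shoot arrays among the 7, and none of the other 6 had an informative gene name. The 6 measured water deficit and ABA markers summed to 1483 to 1904 in shoots of mhz4 and mhz5, to 4652 in WT shoots in ethylene and to 7008 on the WT shoot air array. The part of that array, of water status or of ABA in the results of PDC1 and PPDK2 was not tested. Without the array neither gene reached 200 on a second array. In a fit with no filter their ethylene differences in shoots were then 1.15 for PDC1 (limma adjusted p = 0.218) and 0.37 for PPDK2 (0.499).

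In roots no probe set passed the test of the WT ethylene response against the mean of the mutants (0% called by limma, and 1327 probe sets at an unadjusted p under 0.05). None of the 6 genes did at an unadjusted p under 0.05 either. NSHB2 had the widest error of the 6 there, with a difference of -0.65 (SE 1.03, limma adjusted p = 0.991).

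The genotypes were compared over both gases. In roots of mhz1 none of the 6 genes differed from WT, with differences from -0.27 for NSHB2 to 0.02 for PDC2, none at an unadjusted p under 0.05, where limma called 1.25% of all probe sets either way. In mhz4 roots NSHB2 was higher than in WT by 2.84 (SE 0.74, limma adjusted p = 0.0376), where 6.69% of all probe sets were called higher. In mhz5 roots NSHB2 was higher by 3.35 (SE 0.74, adjusted p = 0.0271), where 4.35% were. Setting the mean of mhz4 and mhz5 against mhz1, a comparison added after the values were seen, gave 3.36 for NSHB2 (SE 0.64, adjusted p = 0.0148), with 4.60% of probe sets called higher.

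The NSHB2 differences from WT held in each gas. In ethylene the roots of mhz4 and mhz5 stood 3.83 and 3.87 above WT, and in air they stood 1.85 and 2.84 above it. The mhz1 root lay 0.79 below WT in ethylene and 0.26 above it in air. By its brighter probe set PDC2 lay between -0.01 and 0.27 of WT over the 6 root pairs. By the second set it lay below WT, at -0.28 to -0.53, in every pair but that of mhz5 in ethylene (0.09).

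The other genes did not pass in mutant roots. PPDK1 was 0.92 above WT in mhz5 (SE 0.28, limma adjusted p = 0.0770) and 0.10 above it in mhz4 (adjusted p = 0.849), and it passed in mhz5 without the WT shoot air array (0.0415) or the WT shoot ethylene array (0.0414). Adh2 was 0.70 above WT in mhz5 (adjusted p = 0.106) and 0.43 above it in mhz4 (0.261), at 0.36 in mhz5 and 0.13 in mhz4 in ethylene against 1.04 in mhz5 and 0.73 in mhz4 in air. The NSHB2 call in mhz4 roots was lost in 7 of 17 fits without an array or a genotype (any mhz4 or WT root array, either mhz5 shoot array, or the genotype mhz5; adjusted p of 0.0542 to 0.223, differences of 1.85 to 3.83) and with a robust trend (0.0562). In mhz5 roots it was lost without any mhz5 or WT root array (0.0945 to 0.120). Against mhz1 it was lost without the mhz1 ethylene array (2.34, adjusted p = 0.177).

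**Figure D3:**
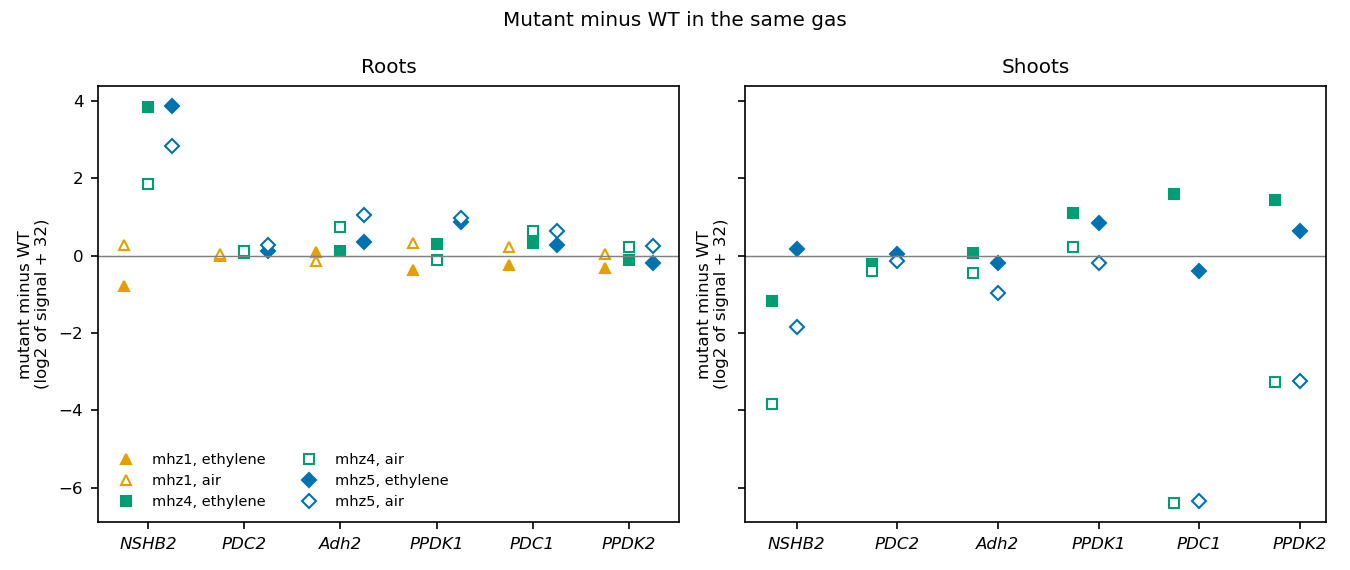
Mutant minus WT in the same gas (log2 of signal + 32), filled points for ethylene and open points for air, in roots and in shoots. NSHB2 is above 0 for mhz4 and mhz5 in roots in both gases and below 0 for mhz4 in shoots in both gases, and in shoots the open points of PDC1 and PPDK2, which share the WT shoot air array, lie below -3.

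In shoots NSHB2 was lower in mhz4 than in WT by 2.49 (SE 0.74, limma adjusted p = 0.0388), at -1.16 in ethylene and -3.82 in air, whereas it was higher than in WT in mhz4 roots. PDC2 was lower in mhz4 by 0.31 (SE 0.064, adjusted p = 0.0111), at -0.22 in ethylene and -0.40 in air. These were 2 of the 6 genes, where 13.7% of all probe sets were called lower. In mhz5 shoots none of the 6 passed by limma, where 18.0% of all probe sets were called either way. At an unadjusted limma p under 0.05 there were 2 of the 6, Adh2 and PDC1, beside 35.3% of all probe sets. PDC1 is counted there through its level on the WT shoot air array, so its part is a description of that array and no test. NSHB2 stood 0.16 above WT in ethylene and 1.83 below it in air in mhz5.

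The WT shoot air array weighs on each of these values. Without it, NSHB2 was lower in mhz4 shoots by 1.33 (limma adjusted p = 0.371) and PDC2 by 0.22 (adjusted p = 0.111). The NSHB2 call was also lost with a robust trend (0.0583), without either mhz4 or either mhz5 shoot array and without the genotype mhz5 (0.0568 to 0.311). The PDC2 call was lost with shoot arrays alone (0.0699), without the mhz4 shoot air array (0.109) and by the second probe set (-0.13, adjusted p = 0.631). In air alone, 3 of the 6 genes were at least 2-fold lower than in the WT shoot both in mhz4 shoots, where 3.50% of compared probe sets were, and in mhz5 shoots, where 2.38% were. In both mutants they were PDC1 (-6.38 in mhz4 and -6.33 in mhz5), PPDK2 (-3.26 and -3.24) and NSHB2 (-3.82 and -1.83), and both comparisons share that WT array. PDC1 and PPDK2 were compared in these pairs only through that array, so they could only count as lower. For these genes the counts are thus a description of the array and no test. In the fit without the WT shoot ethylene array, WT shoots are that air array alone, and the difference of PDC1 was -5.87 in mhz4 and -6.84 in mhz5, while that of PPDK2 was -3.06 in mhz4 and -3.45 in mhz5. That fit follows the lone array exactly and takes its spread from the other groups, so no p-value is given for these values.

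For NSHB2 the tissues were set against each other as the mutant difference in roots minus that in shoots, a comparison added after the values were seen. It was 5.33 for mhz4 (SE 1.04, limma adjusted p = 0.0109) and 4.19 for mhz5 (SE 1.04, adjusted p = 0.0396). PDC2 also passed for mhz4 (0.40, SE 0.090, adjusted p = 0.0179) and Adh2 for mhz5 (1.27, SE 0.34, adjusted p = 0.0488). Of all probe sets, 12.3% were called with a higher difference in roots for mhz4 and 5.54% for mhz5. For NSHB2 in mhz4 the call was lost in 1 of 17 fits without an array or a genotype, that without the mhz4 shoot air array (4.50, adjusted p = 0.0565). For NSHB2 in mhz5 it was lost in 10 of 17 and with a robust trend (adjusted p up to 0.143). The 10 were the fits without any mhz5 or WT root array, without either mhz5 shoot array, the mhz4 shoot air array or the genotype mhz4, and both fits without the WT shoot air array, in which the difference was 3.03.

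PDC2 and Adh2 were less stable in that comparison. The call of PDC2 was lost with quantile normalization (0.28, adjusted p = 0.0576), with median scaling (0.23, adjusted p = 0.0942), in 6 of 17 fits without an array or a genotype (either mhz4 root array, the WT root air array, the mhz4 shoot air array, and the WT shoot air array with and without the filter; adjusted p of 0.0641 to 0.0994) and by the second probe set, which ran the other way (-0.29, adjusted p = 0.418). The call of Adh2 was lost in 18 of 26 alternatives, with adjusted p-values up to 0.177. Among them were the fits without any mhz4, mhz5 or WT root array, without any mhz4 or mhz5 shoot array, without the WT shoot air array (a difference of 0.95) and without the genotype mhz4.

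Levels in the tissues themselves differed for 4 of the 6 genes, over the 3 genotypes measured in both. Adh2 was higher in roots than in shoots by 2.65 (SE 0.14, limma adjusted p = 1.84e-07), PPDK1 by 1.55 (SE 0.16, adjusted p = 1.96e-05) and PDC2 by 0.22 (SE 0.037, adjusted p = 5.30e-04). NSHB2 was lower in roots by 1.40 (SE 0.42, adjusted p = 0.0136). The test called 49.9% of all probe sets higher in roots and 32.4% lower, so such calls were common. PPDK2 (-1.13, adjusted p = 0.0655) and PDC1 (-0.69, adjusted p = 0.460) did not pass. Without the WT shoot ethylene array they were -1.84 and -1.85, and PPDK2 was -1.59 without the mhz4 shoot air array, but each of these fits follows 1 of the 2 arrays on which the genes are high exactly, so no p-value is given. With no filter and without the WT shoot air array PPDK2 was -0.42. It would not have passed the filter there and WT shoots were a lone array, so no p-value is given for this value either.

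The tissue difference of Adh2 was present in each genotype and gas, at 2.67 in mhz4, 3.15 in mhz5 and 2.61 in WT in ethylene and at 2.62 in mhz4, 3.44 in mhz5 and 1.44 in WT in air. That of PPDK1 was found mainly in ethylene, at 2.28 in mhz4, 3.10 in mhz5 and 3.07 in WT, against -0.32 in mhz4, 1.16 in mhz5 and -0.0031 in WT in air. The tissue difference of NSHB2 was 1.11 in mhz4, -0.17 in mhz5 and -3.88 in WT in ethylene, and 0.42 in mhz4, -0.59 in mhz5 and -5.26 in WT in air, so WT alone had far lower levels in roots. Without the genotype WT its tissue difference was 0.19 (limma adjusted p = 0.705), and without the mhz4 shoot ethylene array it was -1.12 (0.0542). The PDC2 call was lost without the genotype mhz4 (0.12, adjusted p = 0.0627).

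NSHB1, the other haemoglobin gene of the wider list, was measured by 3 probe sets that disagreed in roots. The set ending _s_at, a suffix Affymetrix gives to sets whose probes match more than one gene or transcript, had 232 in mhz1, 2192 in mhz4, 2175 in mhz5 and 300.03 in WT roots in ethylene, against 153 in mhz1, 383 in mhz4, 438 in mhz5 and 210 in WT roots in air. The set ending _at had 522 in mhz1, 1434 in mhz4, 1183 in mhz5 and 711 in WT roots in ethylene, against 484 in mhz1, 1261 in mhz4, 1352 in mhz5 and 569 in WT roots in air. The first followed NSHB2 and the second changed little with the gas. Their root ethylene differences were 1.41 (SE 0.40, limma adjusted p = 0.0984) and 0.10 (SE 0.22, adjusted p = 0.900). Transcripts of NSHB1 and NSHB2 may both bind the first set, so the NSHB1 level from it is uncertain.

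All 3 NSHB1 sets passed the same test between the tissues in mhz4. The mhz4 difference from WT in roots minus that in shoots was 3.54 for the set ending _s_at (limma adjusted p = 0.0173), 1.91 for that ending _at (0.0197) and 1.68 for that ending _x_at (0.0300). The mean of mhz4 and mhz5 against mhz1 in roots was 2.16, 1.32 and 1.16 for these sets (limma adjusted p = 0.0283, 0.0209 and 0.0332).

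**Figure D4:**
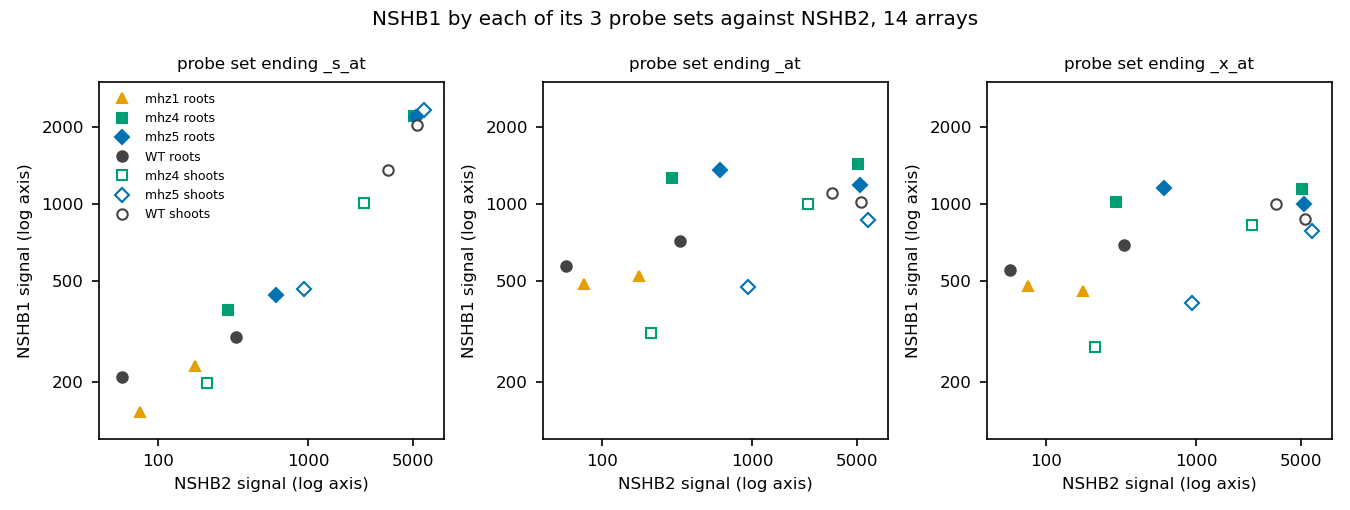
Signal of NSHB1 by each of its 3 probe sets against the signal of NSHB2 on the 14 arrays (both axes log), with filled points for roots and open points for shoots. The set ending _s_at follows NSHB2 over the whole range, while the sets ending _at and _x_at stay between 276 and 1434.

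The wider list held 18 other genes of the low-oxygen response, sugar supply, lower glycolysis and their regulators, of which 14 were bright enough to be fitted. PDC3, SUS3, RAMY3D and GAPC2 were not. In ethylene-treated roots 1 of the 14 rose, TPP7, a trehalose-6-phosphate phosphatase gene known from rice that germinates under water. TPP7 had 449 in mhz1, 454 in mhz4, 481 in mhz5 and 320 in WT roots in ethylene, against 100.4 in mhz1, 276 in mhz4, 240 in mhz5 and 218 in WT roots in air (0.98, SE 0.19, limma adjusted p = 0.0261). Of all probe sets, 2.32% were called higher there. None of the 14 fell in roots, and 0 passed in shoots by limma, where 0.802% of all probe sets were called higher. At an unadjusted p under 0.05 there were 6 of the 14 in shoots, beside 16.6% of all probe sets. The list's median was 0.06 in roots and 0.18 in shoots.

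Sucrose synthase genes, whose enzymes split sucrose for glycolysis, differed between genotypes. SUS4 was lower than in WT in mhz4 roots (-1.36, SE 0.38, limma adjusted p = 0.0485) and in mhz5 roots (-1.53, SE 0.38, adjusted p = 0.0424), and higher than in WT in mhz4 shoots (1.67, SE 0.38, adjusted p = 0.0157). It was 1 of 14 lower in each mutant's roots, where 8.16% of all probe sets were called lower in mhz4 and 5.22% in mhz5. Its root signals were 361 in mhz1, 250 in mhz4, 232 in mhz5 and 360 in WT in ethylene, against 663 in mhz1, 245 in mhz4, 202 in mhz5 and 1273 in WT in air, so the WT and mhz1 roots in air stood apart. SUS1 was higher in mhz4 roots (0.36, adjusted p = 0.0121) and lower in the shoots of mhz4 (-0.29, adjusted p = 0.0156) and mhz5 (-0.28, adjusted p = 0.0254).

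Of the 14, 4 were higher and 4 lower in mhz4 shoots than in WT, where 12.6% of all probe sets were called higher and 13.7% lower. Those higher were SUS4, SUS2 (0.33), TPP7 (1.15) and MYBS1 (0.67), a gene of a sugar-responsive MYB factor. Those lower were SUS1, ENO1 of enolase (-0.41), SNRK1A of an energy-sensing kinase (-0.25) and NSHB1 by the set ending _s_at (-1.78, limma adjusted p = 0.0487). In mhz5 shoots 3 of the 14 were lower: SUS1 and the glyceraldehyde-3-phosphate dehydrogenase genes GAPC1 (-0.27) and GAPC3 (-0.67), and none was higher, where 8.61% of all probe sets were called lower. The median of the list was -0.14 in mhz4 shoots and -0.12 in mhz5 shoots.

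Water deficit and ABA markers of roots moved with the genotypes too. The 6 water deficit and ABA markers summed to 2593 to 3436 in the 4 ethylene-treated roots, and to 10119 in mhz1, 2818 in mhz4, 2910 in mhz5 and 34847 in WT roots in air. In roots, mhz1 and WT were also the 2 genotypes with the lowest air levels of Adh2 and NSHB2 and with the highest air levels of SUS4. The part of these markers in the results was not tested. The ratio of 3′ to 5′ signal, a measure of RNA and labelling quality, ranged from 5.02 to 18.1 for the actin controls and from 1.09 to 1.54 for ubiquitin. For actin in roots it was 9.65 in mhz1, 9.72 in mhz4, 15.2 in mhz5 and 5.02 in WT in air. In ethylene these roots had 12.7 in mhz1, 6.79 in mhz4, 6.87 in mhz5 and 6.55 in WT. The part of RNA quality in the differences between arrays was not tested.

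Among all named genes, those whose pattern over the 14 arrays was most like each of the 6 were ranked by Pearson's r of log2 signals, each centred within its tissue. The arrays share treatments, so these values are descriptions. NSHB2 was closest to NSHB1 by its set ending _s_at (r = 0.98), then to CIPK2, a kinase gene (0.92), and AT9 (0.91). PDC2 was closest to GK1 (0.91), GME-2 (0.91) and CIPK2 (0.86). Adh2 was closest to LOGL1, a cytokinin-activating gene (0.91), osysl16 (0.90) and CIPK2 (0.88). PPDK1 was closest to OsTLP3 (0.85), OsZIP3, a zinc transporter gene (0.78), and NAS3, a nicotianamine synthase gene (0.75).

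CIPK2 thus appeared among the 3 nearest genes of NSHB2, PDC2 and Adh2. PDC1 and PPDK2 were closest to each other (r = 0.96). PDC1 came next to OsPIP2;8, an aquaporin gene (0.85), and HSP18.1 of a small heat shock protein (0.85), and PPDK2 to HSP18.1 (0.87) and CYP85A1 of brassinosteroid synthesis (0.76). Without the WT shoot air array, r was 0.65 between PDC1 and PPDK2. It was then 0.42 between PDC1 and OsPIP2;8, -0.37 between PDC1 and HSP18.1, -0.23 between PPDK2 and HSP18.1 and -0.20 between PPDK2 and CYP85A1. Among the 6 genes themselves, r over the 8 root arrays was 0.79 between NSHB2 and PDC2, 0.94 between PDC2 and Adh2, 0.95 between PDC2 and PPDK1, and 0.83 between Adh2 and PPDK1. Over the 6 shoot arrays r was 0.98 between NSHB2 and PDC2 and -0.80 between PDC2 and PPDK1.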

How the data were processed

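RNA was measured on 14 rice arrays, 1 per combination of genotype, tissue and gas. The authors deposited a linear intensity for each probe set on each array, made with MAS5 per the submitters' processing notes. The sources used here give neither its version nor its settings. The number of arrays limits the precision. Of 57381 probe sets, 123 controls were left out. Each array was scaled (factors of 3.87 to 4.10) to a mean of 500 without the lowest and highest 2% of values, and log2(signal + 32) was fitted with limma 3.58.1 in R 4.3.3 for the 23186 probe sets that reached 200 on 2 arrays or more.

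One fit held 7 genotype-by-tissue means and 1 ethylene term per tissue (5 residual degrees of freedom). A second added WT-by-ethylene terms (3 residual degrees of freedom). Variances were moderated with a trend. The fits were tested on simulated data.

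Gene names came from the platform annotation (22436 with 1 gene, 95 with several, 34727 unnamed) and a current gene table (17905 of 17905 genes found). Named genes are the 6 members, the wider list of 18 genes, and the 3 named genes most like each member. From the wider list 4 symbols were left out because the table gives them to genes of another kind or leaves their kind open, and 1 that matched 2 genes. ADH1 was not analysed here. Members, lists and comparisons were chosen with earlier results of these data known. Alternatives were the pseudocount (8 or 64), the filter (none, or at least 400), quantile or median scaling, no trend or a robust trend, arrays of 1 tissue, leaving out each array or genotype, and the second probe set of PDC2. A fit without the WT shoot air array and with no filter was added after seeing the data. No sequences were used here.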

Additional observations from a re-analysis of the deposited data

Results flagged for a closer look

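The ethylene difference of PPDK1 differed between the tissues, by 2.34 (roots minus shoots) in a contrast of the same limma fit. Its 4 root pairs were all above 0 and its 3 shoot pairs all below 0.

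The differences of the mutants from WT differed between roots and shoots in 4 results. For mhz4 they differed by 5.33 for NSHB2 and by 0.40 for PDC2, and for mhz5 by 4.19 for NSHB2 and by 1.27 for Adh2. The call of Adh2 was past the threshold in 8 of 26 alternatives, and that of PDC2 in 17 of 26. For NSHB2 the call was lost in 1 of 26 alternatives in mhz4 and in 11 of 26 in mhz5.

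The ethylene difference of PPDK2 in WT shoots lay below the mean of the mhz4 and mhz5 shoots, at -4.29 in the fit with a WT term. Its WT shoot signals were 94.4 in ethylene and 1882 in air. That value rests on 1 WT array in air, through which the gene passed the filter, and on a WT pair that the fit follows exactly, so it is a description with no p-value drawn from it.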

How the results depend on the processing

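Values are log2 differences and counts are of the 6 genes past the threshold. In ethylene-treated shoots the count was 0 with no trend, with shoot arrays alone and with the second probe set of PDC2. For mhz4 against WT it was 0 in roots with a robust trend, and 1 in shoots with a robust trend, shoot arrays alone or the second probe set. For the mutant difference in roots minus that in shoots it was 1 for mhz4 with quantile normalization, median scaling or the second probe set. For mhz5 it was 1 with a minimum of 400, quantile normalization, median scaling or no trend, and 0 with a robust trend. For the WT response against the mutants in shoots it was 2 with a pseudocount of 64 or no filter. It was 3 with shoot arrays alone, and 0 with a minimum of 400, which leaves PDC1 and PPDK2 out. The counts of 2 are PDC1 and PPDK2, and that of 3 adds NSHB2. PDC1 and PPDK2 rest there on the WT shoot air array and on a WT pair fitted exactly. For these genes the counts are thus a description of that array and no test.

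Among genes that did not pass, signs turned near 0. With median scaling PDC2 in mhz4 roots was -0.0025, PPDK2 in mhz4 roots -0.016, PPDK2 in mhz5 roots -0.00017 and PDC2 in mhz5 shoots 0.060 (0.011 with quantile normalization). The second probe set gave PDC2 at -0.35, -0.42 and -0.21 in mhz1, mhz4 and mhz5 roots, at -0.064 for the tissue difference of mhz5, at -0.24 for the WT response against the mutants in roots, and at -0.29 for the tissue difference of mhz4, which had passed. The cause was not tested. Median scaling shifted the median of all probe sets to 0.13 (0.02 in the reported fit) in mhz5 shoots, and to -0.18 (-0.02 as reported) and -0.22 (-0.07 as reported) for the tissue differences of mhz4 and mhz5.

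Without each array or genotype in turn, the count was 1 to 4 for ethylene in roots, 0 to 2 for ethylene in shoots, and 0 to 1 for their difference, for mhz4 roots and for mhz4 and mhz5 against mhz1. It was 0 to 2 for mhz5 roots, mhz5 shoots and the WT response in shoots. It was 0 to 4 for mhz4 shoots and for the tissue difference of mhz4, and 0 to 5 for that of mhz5. The upper ends for mhz4 and mhz5 shoots and both tissue differences come from the fit without the WT shoot ethylene array. They include PDC1 and PPDK2, for which that fit follows the lone WT shoot air array exactly. The upper end for the WT response in shoots is also these 2 genes. These upper ends are thus descriptions and no test of PDC1 and PPDK2.

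The ranges of the genes whose sign turned when an array or genotype was left out were as follows. Ethylene in roots gave PPDK2 -0.12 to 0.025, and ethylene in shoots gave PDC1 -2.84 to 1.15 and PPDK2 -1.98 to 0.37. Their difference gave NSHB2 -0.46 to 0.87, PDC1 -0.86 to 3.13 and PPDK2 -0.39 to 1.95. In mhz1 roots NSHB2 gave -1.29 to 0.76, PDC1 -0.20 to 0.18, PDC2 -0.024 to 0.055, Adh2 -0.35 to 0.31, PPDK1 -0.43 to 0.37 and PPDK2 -0.32 to 0.053. In mhz4 roots PPDK1 gave -0.24 to 0.44 and PPDK2 -0.13 to 0.24, and in mhz5 roots PPDK2 gave -0.15 to 0.23. In mhz4 shoots PDC1 gave -5.87 to 1.09, Adh2 -0.52 to 0.13 and PPDK2 -3.06 to 1.23. In mhz5 shoots NSHB2 gave -2.0 to 0.33, PDC1 -6.84 to 0.12, PDC2 -0.14 to 0.033, PPDK1 -0.15 to 0.80 and PPDK2 -3.45 to 0.84. Roots minus shoots gave NSHB2 -2.48 to 0.19 and PDC1 -1.85 to 0.47. The tissue difference of mhz4 gave PDC1 -0.60 to 6.36 and PPDK2 -1.18 to 3.11, and that of mhz5 gave PPDK2 -0.80 to 3.48. The WT response against the mutants in roots gave NSHB2 -1.50 to 0.011 and PPDK1 -0.15 to 0.41. Over all probe sets, limma called 16 in the WT shoot response, 92 with no filter and 6 with no trend. It called 2518 for the tissue difference of mhz5 and 4358 with median scaling.

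No paired analysis was possible by replicate number, because every label gives the same number. Ethylene and air arrays of a genotype are matched in the reported fit through its genotype-by-tissue means. Each group has 1 array, and PDC1 and PPDK2 lie below a signal of 200 on 12 of 14 arrays, so their values are dim outside the WT shoot air array.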
